A study of Malus domestica with 99 samples.

Results

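AP2D11 and AP2D42 are 2 apple genes that encode proteins with an AP2 DNA-binding domain. They are described here in the fruit cortex of the cultivars Golden Delicious, Granny Smith and Fuji after harvest, with and without blocked ethylene perception. The genes were chosen from their readout: over days 7, 14 and 21 AP2D11 was lower and AP2D42 higher in treated fruit, and of the 5 genes with family names that were measured in all 3 cultivars they had the lowest and the highest mean difference. ERF2, measured in 2 cultivars, was lower by more than AP2D11. Values of that contrast, and of the columns it used, are therefore given as a description with no test. Their levels at harvest, at day 1 and at 2 months were not part of that contrast, and the tests below rest on them. The genes were chosen with earlier results of these data known.

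The 2 genes had 3 transcript entries, against 55627 entries in each of the Golden Delicious and Granny Smith tables and 27230 in the Fuji table. AP2D11 was measured by XM_008341964 and NM_001293982, and the first stands for the gene because its mean over all columns was higher. AP2D42 had 1 entry, NM_001301117, and its name is a synonym of LOC103455948 in the RefSeq gene table of the assembly GDT2T_hap1. All 3 entries were present in every table and passed the filter on low values.

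The treated groups were fruit that received 1-MCP (1-methylcyclopropene) overnight in a closed container after harvest and were sampled at day 1, 7, 14 and 21 and at 2 months. They were set against control fruit of the same cultivar at the same times and against fruit at harvest. This made 11 groups in each of 3 cultivars, and the labels list 99 libraries in 33 groups of 3 biological replicates. The storage conditions of the fruit are not given in the sources used here.

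1-MCP is a gas that binds the ethylene receptors and keeps them from sensing the hormone. In climacteric fruit such as apple, ethylene made by the fruit itself drives softening, aroma and colour change, and its signal passes from the receptors to EIN3-type transcription factors and on to genes of the AP2/ERF family. Proteins of this family bind DNA through the AP2 domain, and the ERF members among them act as activators or repressors of ripening genes in fruit. No function particular to AP2D11 or AP2D42 comes with their names.

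The deposited values are group means on the log2 scale, with 1 column a group. The spread between replicate fruit and the depth of the libraries are therefore unknown, and the 3 cultivars serve as the replicates in every test. Each p-value was computed with limma over 20999 entries and adjusted by the Benjamini-Hochberg method. It weighs a difference against a moderated spread between cultivars, for which limma also draws on the spread of the other entries. The p-value therefore does not rest on the gene's own 3 differences alone, and those 3 by themselves give a weaker basis. A gene is said to have risen or fallen, or to be called higher or lower, where the adjusted p was under 0.05. Standard deviations (SD) and standard errors (SE) are over the 3 cultivars. The 95% intervals come from limma's moderated spread, so they do not follow from the SE printed beside them. In Fuji the day 14 control column and the 2-month 1-MCP column were means of 2 libraries, while the other 31 columns were means of 3. Low values resolve to whole numbers, although the authors name the measure FPKM, so the values are not taken as per transcript length and levels are not compared between genes. The tables of the cultivars appear to have been normalized separately, so levels set side by side across cultivars are a description. In whole tissue, fewer cells of a type and less RNA per cell cannot be told apart.

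Genes known to depend on ethylene in ripening apple served as a check of the labels, and their ranges reached lower and ended lower in treated fruit, with an overlap. AFS1, which makes the aroma terpene alpha-farnesene, lay between -0.67 and 2.79 over the 1-MCP columns, against 0.33 to 11.46 over the control columns. ACO1, the ACC oxidase of the last step of ethylene synthesis, lay between 5.04 and 14.59 in 1-MCP fruit and between 5.63 and 16.12 in control fruit. The softening enzyme PG1, measured in 2 tables, lay between 0.94 and 9.74 in 1-MCP fruit and between 2.55 and 13.14 in control fruit. At 2 months ACO1 had 14.13 with 1-MCP against 16.12 in control for Golden Delicious, and 14.59 against 15.88 for Granny Smith. For Fuji it had 10.41 against 14.65. PG1 then had 9.74 against 9.96 for Golden Delicious and 4.34 against 10.81 for Granny Smith. At day 1 ACO1 was higher after 1-MCP in Granny Smith, with 5.85 against 5.63. Phloem markers overlapped between the treatments over all cultivars, but not in each cultivar. The lectin gene pp2-3 lay between 5.40 and 8.34 in 1-MCP fruit and between 5.23 and 8.50 in control fruit, and pp2-1, measured in 2 tables, lay between 5.08 and 8.70 in 1-MCP fruit and between 5.80 and 8.95 in control fruit. In Granny Smith both were lower after 1-MCP at all 5 times. There pp2-1 had 6.04, 5.08, 5.11, 5.62 and 6.28 in 1-MCP fruit over day 1, 7, 14 and 21 and 2 months, against 6.76, 6.68, 6.70, 6.75 and 6.55 in control fruit, with no overlap. There pp2-3 had 6.79, 5.60, 5.40, 5.50 and 6.31 in 1-MCP fruit, against 7.55, 6.87, 6.34, 6.45 and 6.63 in control fruit. In Golden Delicious the sign varied with time for both genes. In Fuji pp2-3 had 7.54, 7.98, 8.34, 7.72 and 7.83 in 1-MCP fruit, against 7.54, 7.91, 7.34, 7.17 and 7.35 in control fruit. From day 7 on it was thus higher after 1-MCP in Fuji, with the sign opposite to that of the AP2D11 difference. In Granny Smith the phloem markers shared the sign of the AP2D11 difference at all 5 times. Their treated and control levels were closest at 2 months, where the AP2D11 difference was widest (-1.80). Neither marker was at the floor of the scale, and the part of the markers in the results was not tested.

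AP2D11 was lower in 1-MCP fruit than in control fruit at every time in every cultivar. The difference was called at day 1, when treated fruit stood at 0.656 of the control level. It was also called at 2 months, when they stood at 0.351 of it. Control fruit reached their highest AP2D11 level at 2 months in all 3 cultivars, while treated fruit never exceeded the level at harvest.

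In Golden Delicious, AP2D11 had log2 levels of 10.24, 9.70, 9.71, 10.01 and 9.97 in treated fruit at the 5 times, day 1, 7, 14 and 21 and then 2 months. Control fruit at the same times had 10.87, 10.57, 10.53, 10.43 and 11.70, and fruit at harvest had 11.38. The highest treated column lay below the lowest control column, and harvest lay above every column but control at 2 months. In Granny Smith, 1-MCP fruit had 9.63, 9.42, 9.31, 9.43 and 9.65, against 10.31, 10.85, 10.64, 10.27 and 11.45 in control fruit and 10.06 at harvest. Here too the treatments did not overlap, and harvest lay between them. In Fuji, 1-MCP fruit had 9.42, 9.29, 9.28, 9.44 and 9.88, against 9.94, 9.84, 9.81, 9.74 and 10.88 in control fruit and 10.07 at harvest. In this cultivar the treated column at 2 months lay above the lowest control column, that of day 21, so the ranges overlapped.

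**Figure D1:**
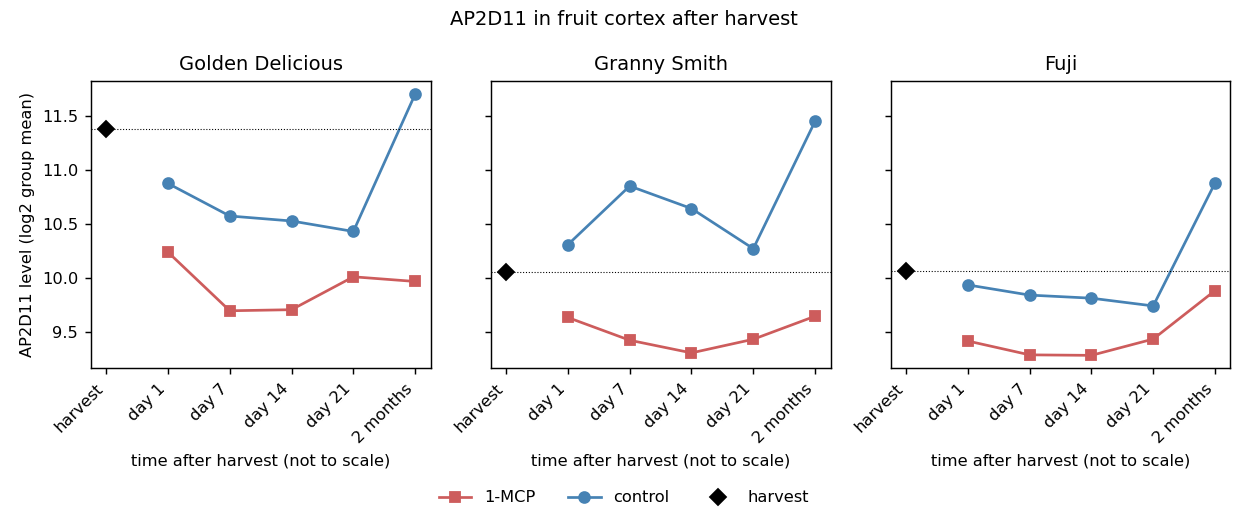
AP2D11 level (log2 group mean, y axis) against time after harvest (x axis, not to scale) in each cultivar, with squares for 1-MCP, circles for control and a diamond and dotted line for harvest; each point is 1 group mean with no error available. In Golden Delicious the treated levels run between 9.70 and 10.24 and the control levels between 10.43 and 11.70, and in each panel the highest control point is that of 2 months.

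At day 1 the difference of 1-MCP and control fruit was -0.64 for Golden Delicious, -0.67 for Granny Smith and -0.52 for Fuji. The 3 cultivars thus lay close together, with a mean of -0.61 (SD 0.081, SE 0.047, n = 3 cultivars, 95% interval -0.74 to -0.48). AP2D11 was called lower in this comparison (limma, adjusted p = 0.00155), in which 8.57% of all entries were called and 4.09% were called lower. Of the 20999 entries, 4.96% had a lower mean than AP2D11. The call was lost without the filter on low values (adjusted p = 0.111), without limma's trend and robust options (0.109) and with the trend taken on the mean difference, the first fit run (0.298), and over its 10 alternatives the adjusted p ran between 0.00155 and 0.298.

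At 2 months the difference was -1.73 for Golden Delicious, -1.80 for Granny Smith and -0.99 for Fuji, whose treated column rests on 2 libraries. The mean was -1.51 (SD 0.448, SE 0.258, n = 3 cultivars, 95% interval -2.01 to -1.01), and AP2D11 was called lower (limma, adjusted p = 0.0196). In this comparison 8.18% of entries were called and 3.81% were called lower, and 4.58% of entries had a lower mean than AP2D11. The call was lost without Granny Smith (-1.36, adjusted p = 0.112), without the filter (0.135), without the trend and robust options (0.0683) and with the trend on the mean difference (0.198), within a range of 0.0157 to 0.198 over its 10 alternatives. In Golden Delicious the median entry itself differed by 0.12 at 2 months, and with each cultivar centred on its median the mean was -1.57 (adjusted p = 0.0203).

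The difference at 2 months was wider than that at day 1 in all 3 cultivars, by -1.10 for Golden Delicious, -1.13 for Granny Smith and -0.48 for Fuji. The mean of this difference between the times was -0.90 (SE 0.213, n = 3 cultivars, 95% interval -1.33 to -0.47) and missed the threshold (limma, adjusted p = 0.0656, with 2.3% of entries called). With the gene's other entry it was -0.89 and passed (adjusted p = 0.0484), within a range of 0.0484 to 0.342 over the alternatives.

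Over the days that chose the gene, the differences at day 7 and 14 lay between those of day 1 and 2 months in each cultivar. At day 21 they were closer to 0 than at day 1 in Golden Delicious and Fuji. The values were -0.88, -0.82 and -0.42 in Golden Delicious at day 7, 14 and 21, -1.43, -1.33 and -0.84 for Granny Smith, and -0.55, -0.53 and -0.31 for Fuji. In each cultivar the difference was closer to 0 at day 21 than at day 7 or 14, and at every time measured it was closest to 0 in Fuji. The means of these 3 days were -0.71 for Golden Delicious, -1.20 for Granny Smith and -0.46 for Fuji. In this comparison 34.4% of all entries were called and 15.8% were called lower, and nothing is read from it for AP2D11, which was chosen on it.

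**Figure D2:**
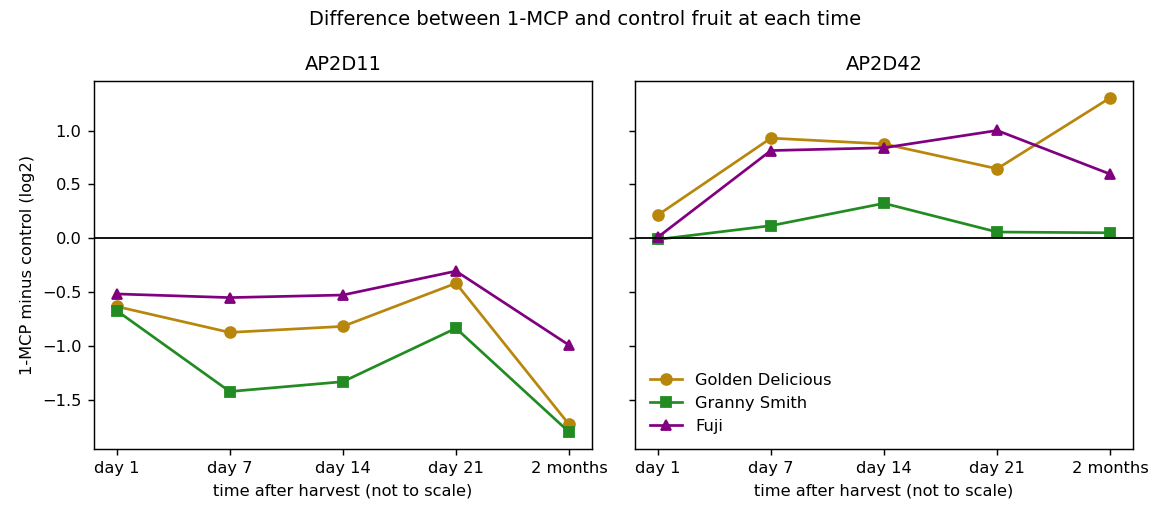
Difference of 1-MCP and control fruit (1-MCP minus control, log2, y axis) for AP2D11 and AP2D42 against time after harvest (x axis, not to scale), with 1 line a cultivar and the line at 0 for equal levels. AP2D11 lies below 0 in all 15 pairs and is lowest in each cultivar at 2 months, while AP2D42 lies above 0 in 14 of 15, with Granny Smith between -0.01 and 0.32.

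Against harvest, AP2D11 fell in 1-MCP fruit at day 1, and its other differences missed the threshold. The comparisons of both kinds of fruit use the same harvest columns. At day 1 the level minus that at harvest was -1.14 for Golden Delicious, -0.42 for Granny Smith and -0.65 for Fuji after 1-MCP. Its mean was -0.74 (SE 0.212, n = 3 cultivars, 95% interval -1.08 to -0.40), a fall to 0.60 of the harvest level (limma, adjusted p = 0.0283, with 12.1% of entries called and 5.94% called lower). That call was lost without Golden Delicious (-0.53, adjusted p = 0.0939), without Fuji (-0.78, 0.213), without the filter (0.198), without the trend and robust options (0.129) and with the trend on the mean difference (0.188), within a range of 0.0267 to 0.213 over its 10 alternatives. Control fruit at day 1 differed from harvest by -0.51 for Golden Delicious, 0.25 for Granny Smith and -0.13 for Fuji. Their mean of -0.13 was not called (SE 0.219, n = 3 cultivars, 95% interval -0.47 to 0.21, limma, adjusted p = 0.629, with 5.55% of entries called).

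At 2 months, 1-MCP fruit differed from harvest by -1.41 for Golden Delicious, -0.41 for Granny Smith and -0.18 for Fuji. The mean of -0.67 (SE 0.378, n = 3 cultivars, 95% interval -1.30 to -0.04) was not called (limma, adjusted p = 0.116, with 20.4% of entries called), and without Golden Delicious it was -0.30. Control fruit differed from harvest by 0.32, 1.39 and 0.81 in the same cultivars. Their mean of 0.84 (SE 0.31, n = 3 cultivars, 95% interval 0.26 to 1.42) was not called either (limma, adjusted p = 0.0757, with 11.2% of entries called). The direction was shared by all 3 cultivars in each kind of fruit, lower than harvest after 1-MCP and higher in control fruit.

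From day 21 to 2 months the AP2D11 level of 1-MCP fruit changed by -0.04 for Golden Delicious, 0.21 for Granny Smith and 0.45 for Fuji, and that of control fruit by 1.27, 1.18 and 1.14. The day 21 columns had helped to choose the gene, so this step has no test. Over all times after harvest, AP2D11 spanned 0.54 for Golden Delicious, 0.34 for Granny Smith and 0.60 for Fuji after 1-MCP, against 1.27, 1.18 and 1.14 in control fruit.

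Over the 33 columns the highest AP2D11 levels were those of control fruit at 2 months in Golden Delicious (11.70) and Granny Smith (11.45), then Golden Delicious at harvest (11.38) and Fuji control at 2 months (10.88). The lowest were Fuji 1-MCP at day 14 (9.28) and day 7 (9.29) and Granny Smith 1-MCP at day 14 (9.31). With no spread between replicates, neighbours in this order cannot be told apart. At harvest the gene averaged 10.5 ± 0.76 (SD, n = 3 cultivars), with Golden Delicious above Granny Smith and Fuji.

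The second entry of AP2D11, NM_001293982, followed the first. XM_008341964 was the higher one in 33 of 33 columns, by 0.17 to 0.49, and the 1-MCP differences of the entries were within 0.13 of each other. The mean difference of NM_001293982 was -0.61 at day 1 (limma, adjusted p = 0.00238) and -1.50 at 2 months (limma, adjusted p = 0.0157). Entries of 1 gene can share reads, so the second entry is not an independent measurement.

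AP2D42 showed the opposite direction in Golden Delicious and Fuji and almost no difference in Granny Smith. In the first pair of cultivars it stood below its harvest level in control fruit and closer to that level in 1-MCP fruit. In Granny Smith it was above harvest in both kinds of fruit from day 7 to day 21. None of its tests at day 1, at 2 months or against harvest passed the threshold in limma, with the settings reported or under any of the 9 alternatives run for each.

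In Golden Delicious, AP2D42 had log2 levels of 7.67, 7.62, 7.76, 7.64 and 7.75 in treated fruit at the 5 times, day 1, 7, 14 and 21 and then 2 months. Control fruit had 7.46, 6.69, 6.89, 6.99 and 6.44 at those times, and fruit at harvest had 7.80. The treatments did not overlap, and every column after harvest lay below harvest. In Fuji, 1-MCP fruit had 7.68, 7.88, 7.44, 7.93 and 7.92, against 7.67, 7.06, 6.60, 6.93 and 7.33 in control fruit and 7.82 at harvest. The treated column at day 14 lay below the control column at day 1, and the ranges overlapped there. In Granny Smith, 1-MCP fruit had 7.45, 8.11, 8.63, 8.19 and 7.56, against 7.46, 8.00, 8.30, 8.14 and 7.51 in control fruit and 7.79 at harvest. Both kinds of fruit were high at days 7, 14 and 21 and below harvest at day 1 and 2 months.

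**Figure D3:**
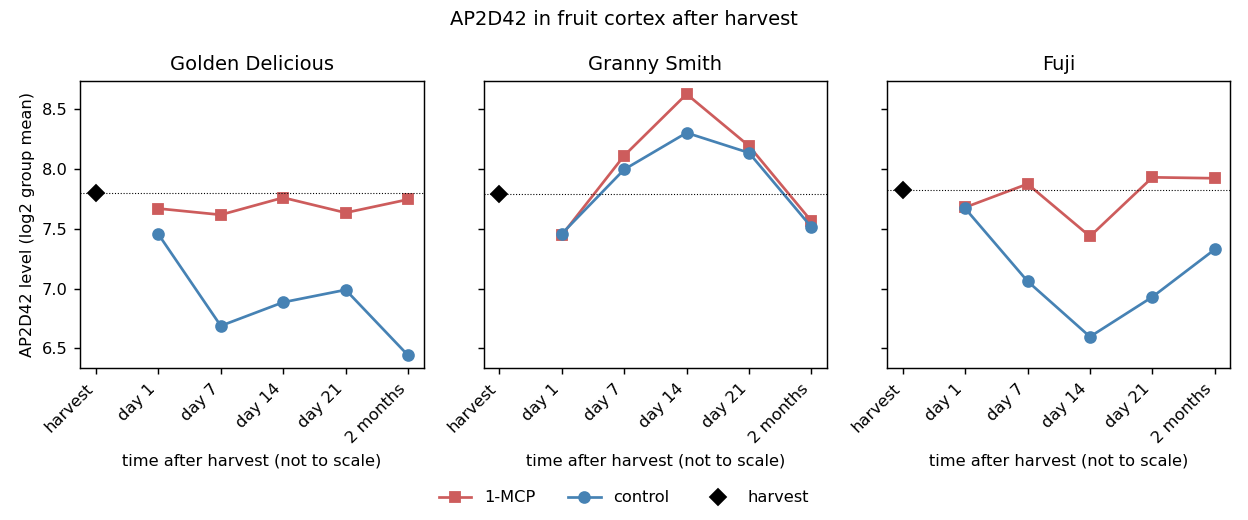
AP2D42 level (log2 group mean, y axis) against time after harvest (x axis, not to scale) in each cultivar, with squares for 1-MCP, circles for control and a diamond and dotted line for harvest; each point is 1 group mean with no error available. Control fruit reach 6.44 in Golden Delicious and 6.60 in Fuji, below all treated fruit of the same cultivar, whereas in Granny Smith both lines peak at day 14 with 8.63 after 1-MCP and 8.30 in control.

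At day 1 the difference of 1-MCP and control fruit was 0.21 for Golden Delicious, -0.01 for Granny Smith and 0.01 for Fuji. The mean of 0.07 (SE 0.072, n = 3 cultivars) had a 95% interval of -0.11 to 0.25 and was not called (limma, adjusted p = 0.624). The sign of this mean turned when Golden Delicious was left out (-0.0016). At 2 months the difference was 1.31 for Golden Delicious, 0.05 for Granny Smith and 0.60 for Fuji. The mean of 0.65 (SE 0.363, n = 3 cultivars, 95% interval -0.0073 to 1.31) was not called (limma, adjusted p = 0.179), and without Golden Delicious it was 0.32. The 2-month difference exceeded that of day 1 by 1.09, 0.06 and 0.59 in these cultivars, with a mean of 0.58 that was not called (SE 0.297, n = 3 cultivars, limma, adjusted p = 0.205).

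On the days used to choose it, AP2D42 had differences of 0.93, 0.88 and 0.65 in Golden Delicious at day 7, 14 and 21, 0.81, 0.84 and 1.00 in Fuji, and 0.12, 0.32 and 0.06 in Granny Smith. Their means were 0.82 in Golden Delicious, 0.89 in Fuji and 0.17 in Granny Smith. In this comparison 18.5% of all entries were called higher, and nothing is read from it for AP2D42.

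At harvest AP2D42 stood at nearly the same level in the 3 cultivars, 7.80 ± 0.016 (SD, n = 3 cultivars). At day 1, 1-MCP fruit differed from harvest by -0.13 for Golden Delicious, -0.35 for Granny Smith and -0.14 for Fuji, with a mean of -0.21 that was not called (limma, adjusted p = 0.202). Control fruit differed from harvest by -0.34, -0.34 and -0.15, with a mean of -0.28 that was not called (limma, adjusted p = 0.146). At 2 months the differences from harvest in 1-MCP fruit were -0.05, -0.23 and 0.10, with a mean of -0.06 (95% interval -0.39 to 0.27, limma, adjusted p = 0.772), whose sign turned without Granny Smith (0.03). In control fruit they were -1.36, -0.28 and -0.49, with a mean of -0.71 (95% interval -1.32 to -0.10, limma, adjusted p = 0.121). The interval of control fruit left out 0, but the adjusted p did not pass.

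The largest distance of any 1-MCP column from harvest was 0.18 in Golden Delicious, 0.39 in Fuji and 0.83 in Granny Smith. AP2D42 was higher in treated than in control fruit in 14 of 15 pairs of columns, lower than harvest in 9 of 15 treated columns and lower than harvest in 12 of 15 control columns. From day 21 to 2 months the treated level changed by 0.11 for Golden Delicious, -0.63 for Granny Smith and -0.01 for Fuji, and the control level by -0.55, -0.62 and 0.40. The 6 highest of the 33 columns were those of Granny Smith at days 7, 14 and 21, treated and control alike.

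The other genes of the family were taken by name. The gene table holds 44 genes whose names begin with AP2D, ERF, DREB or CBF, and 9 of them had an entry. Of these, 5 were measured in all cultivars (AP2D11, AP2D42, AP2D14, AP2D40 and ERF1) and 4 in Golden Delicious and Granny Smith alone (AP2D38, AP2D51, AP2D55 and ERF2). A gene with entries in both 2 and 3 tables is given by the one in 3. Over days 7, 14 and 21, the contrast that chose the genes, AP2D14 averaged 0.38, AP2D40 0.33 and ERF1 -0.45, against 0.62 for AP2D42 and -0.79 for AP2D11. The widest differences of the 9 genes on these days were those of ERF2, with -3.61, -3.24 and -2.83 for Golden Delicious at day 7, 14 and 21 and -2.12, -3.70 and -2.82 for Granny Smith. The treated Granny Smith levels behind them were low, 1.39, 0.53 and 1.44, under the log2 value of 2 used as filter.

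At day 1, 8.57% of all entries were called in the comparison of 1-MCP and control fruit. Of the 5 genes measured in all cultivars, 2 were called lower in 1-MCP than in control fruit, namely AP2D11 and ERF1. None was called higher and 3 were not called. The median of the 5 was -0.18, against -0.003 over all entries tested. It is the value of 1 gene, AP2D14, which was not called (limma, adjusted p = 0.698). The 5 also include the 2 chosen genes, so no shift of the family is read from it. ERF1, an ethylene response factor, had a day 1 log2 level of 10.34 in treated against 10.73 in control Golden Delicious. The Granny Smith levels were 9.28 with 1-MCP against 9.91 in control, and the Fuji levels 10.29 with 1-MCP against 10.75 in control. Its mean difference was -0.49 (SE 0.071, n = 3 cultivars, limma, adjusted p = 0.00512), a call lost without the filter (0.154), without the trend and robust options (0.134) and with the trend on the mean difference (0.298), within a range of 0.00512 to 0.298.

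At 2 months, where 8.18% of all entries were called and 3.81% were called lower, AP2D11 alone among the 5 was called, and 4 were not. The median of the 5 was -0.14, against 0.066 over all entries. This is the value of AP2D40, which was not called, and no shift of the family is read from it either. ERF1 had a difference of -0.78 (SE 0.248, n = 3 cultivars, limma, adjusted p = 0.0726). AP2D14 had 3.11 with 1-MCP against 2.24 in control for Golden Delicious, 3.58 against 2.44 for Granny Smith, and 3.77 against 2.38 for Fuji. Its mean difference of 1.14 was of the same sign in 3 of 3 cultivars and missed the threshold (SE 0.151, limma, adjusted p = 0.0762). AP2D40 differed by -0.42 for Golden Delicious, 0.28 for Granny Smith and -0.28 for Fuji (limma, adjusted p = 0.642). Both genes had a second entry, measured in Golden Delicious and Granny Smith alone. For AP2D40 it differed by -0.62 and -0.07, with the opposite sign in Granny Smith. For AP2D14 it differed by 0.97 and 0.55, with the same sign.

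Against harvest, ERF1 parted from AP2D11. In control fruit at day 1 ERF1 rose by 0.61 (SE 0.109, n = 3 cultivars, limma, adjusted p = 0.0224, with 2.83% of entries called higher), where AP2D11 had a mean of -0.13. In 1-MCP fruit at day 1 its mean difference from harvest was 0.11 (limma, adjusted p = 0.46), where AP2D11 fell. In 1-MCP fruit at 2 months ERF1 was lower than at harvest, with a mean of -0.65 (limma, adjusted p = 0.0337, with 10.3% of entries called lower). The rise was lost without Golden Delicious (0.70, adjusted p = 0.122) or Fuji (0.51, 0.174) and under 3 other alternatives (range 0.0159 to 0.281), and the fall at 2 months without any 1 cultivar (-0.77 to -0.51, adjusted p from 0.0811 to 0.158) and under 3 others (range over all 0.0276 to 0.158). The difference between the 2 genes was itself not tested.

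For the genes measured in 2 cultivars no test across cultivars was run, and their values are a description. AP2D51 at 2 months had 5.32 with 1-MCP against 6.70 in control for Golden Delicious, and 3.80 against 5.90 for Granny Smith. At day 1, 7, 14 and 21 its differences were -1.14, -0.40, -0.11 and 0.34 for Golden Delicious, where the sign turned, and -0.16, -0.64, -0.62 and -0.63 for Granny Smith. ERF2, an ethylene response factor, had 3.91 with 1-MCP against 5.96 in control at day 1 for Golden Delicious, and 1.33 against 1.97 for Granny Smith. At 2 months ERF2 had 5.90 with 1-MCP against 4.95 in control for Golden Delicious and 1.39 against 2.85 for Granny Smith, so the cultivars went opposite ways. In Granny Smith both ERF2 levels at day 1 and the treated one at 2 months were under the log2 value of 2 used as filter. AP2D38 differed by -0.26 to 0.54 and AP2D55 by -0.34 to 0.57 over the 5 times in both cultivars.

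**Figure D4:**
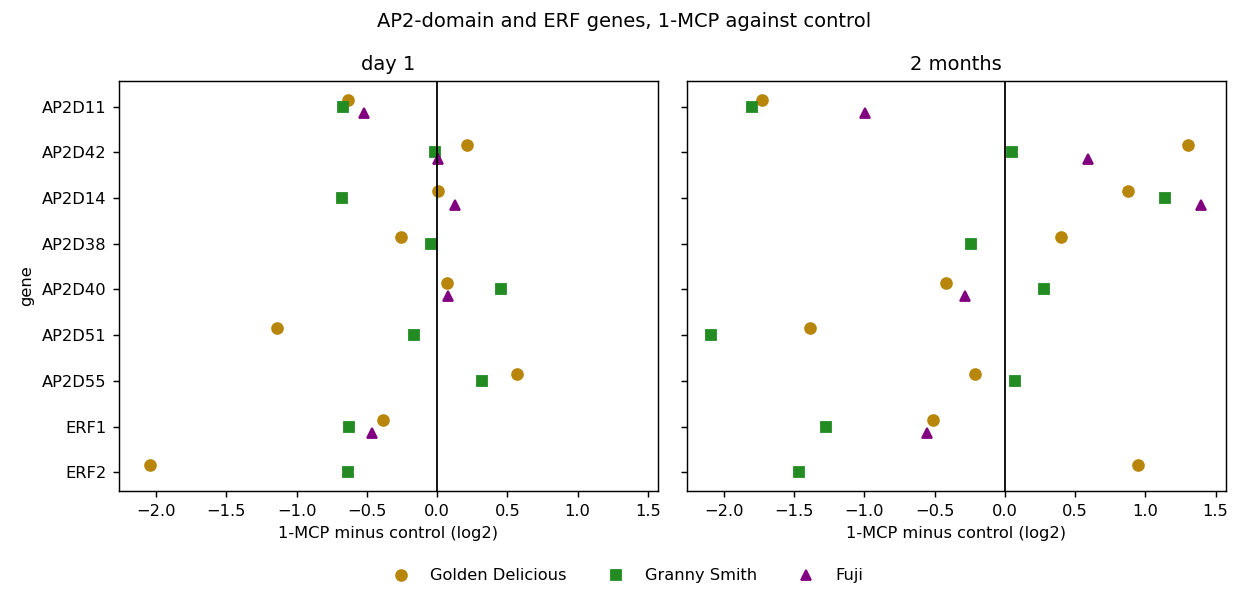
Difference of 1-MCP and control fruit (log2, x axis) for 9 AP2-domain and ERF genes (y axis) at day 1 (left) and 2 months (right), with 1 point a cultivar; 4 genes have no Fuji value. AP2D11 and ERF1 lie left of 0 in all 3 cultivars at both times, AP2D14 lies right of 0 in all 3 at 2 months, and AP2D42 lies at 0.05 in Granny Smith and 1.31 in Golden Delicious at 2 months.

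The entries with the course most like each gene were sought over the 33 columns after the mean of each cultivar had been taken off. Correlations are Pearson's r, given as a description, since the columns share cultivars, treatments and fruit lots. AP2D11 was compared with 20997 other entries, of which 185 had a gene name. Among those 185 the highest r belonged to the xyloglucan endotransglycosylase gene XET01 (0.827), the lipoxygenase gene LOX7a (0.777) and the ethylene receptor gene ETR2 (0.773). XET01 had a log2 level of 1.44 in 1-MCP fruit and 10.76 in control fruit of Golden Delicious at 2 months, a far wider gap than that of AP2D11 in the same columns. In 1-MCP fruit of Granny Smith both XET01 and LOX7a were at or near the floor of the scale. There XET01 lay between -1.0 and 0.0 from day 7 on, and LOX7a between -0.67 and 0.0 at all times. The named genes with the lowest r were the Aux/IAA repressor gene IAA12 (-0.797) and ALF6 (-0.743). IAA12 had 7.49 in 1-MCP fruit and 6.26 in control fruit of Golden Delicious at 2 months. The median r over all entries was -0.055.

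AP2D42 was compared with 20998 entries, of which 186 had a gene name. Among those 186 the highest r belonged to the amylase gene AMY10 (0.727), the sucrose transporter gene SUT1 (0.716) and YTP1 (0.68). AMY10 had 12.32 in 1-MCP fruit and 10.03 in control fruit of Golden Delicious at 2 months. SUT1 had 7.24 in 1-MCP fruit and 5.46 in control fruit of Granny Smith at day 14, a cultivar in which AP2D42 itself hardly differed. Among the named genes the lowest r belonged to the flavanone hydroxylase gene F3H (-0.671) and the lipoxygenase gene LOX6a (-0.618). The median over all entries was 0.02. LOX6a was at or near the floor of the scale in all Granny Smith columns and in all 1-MCP columns of Golden Delicious and Fuji. F3H lay between -0.33 and 0.53 in 1-MCP fruit of Golden Delicious from day 1 to day 21. The r between AP2D11 and AP2D42 was -0.361.

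Among entries of any kind, AB627235 had an r of 0.987 with AP2D11 and JF412352 an r of 0.984 with AP2D42. Neither is named in the gene table. AB627235 had 9.71 in 1-MCP fruit and 11.46 in control fruit of Golden Delicious at 2 months, and JF412352 had 7.61 in the same treated column and 6.28 in the control one. Whether these entries share reads with AP2D11 and AP2D42 was not tested. The next were XM_008371410 (LOC103433171, 0.912) for AP2D11 and XM_008388416 (LOC103449128, 0.805) for AP2D42. XM_008371410 had 3.86 in 1-MCP fruit and 7.36 in control fruit of Golden Delicious at 2 months, and XM_008388416 had 5.46 in the treated column and 4.11 in the control one.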

How the data were processed

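Fruit cortex RNA was sequenced from non-directional libraries, per the labels' protocols, so reads of a gene and of an overlapping antisense gene cannot be told apart. The submitters' processing notes name STAR 2.5.1a, an aligner, and HTSeq, a read counter. The genome build is not given in the sources used here. The authors deposited log2 group means, 1 column for each of 33 groups, in a measure that they call FPKM. Low values (log2 under 1) resolved, within a relative tolerance of 0.0003, to means over 3 libraries in 31 columns and 2 libraries in 2, with 0 entered as 0.5, so that -1 is the floor. Column medians were 4.59 to 4.60 for Golden Delicious, 4.57 to 4.60 for Granny Smith and 4.70 to 4.74 for Fuji. Depth is unknown, so no counting interval is given.

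Entries were named through the RefSeq gene table of the assembly GDT2T_hap1, which matched 22330 of 55627 when the version number was ignored. Entries with a log2 value of at least 2 in at least 3 columns were tested (20999, all in 3 tables). Within each cultivar the difference between groups was taken, and the 3 differences were tested with limma 3.58.1 in R 4.3.3 (intercept alone, eBayes with a trend on the mean level and the robust option), two-sided, with Benjamini-Hochberg adjustment. The code was tested on simulated data. The first fit put the trend on the mean difference and called 0 entries in the comparisons of day 1 and 2 months; the covariate was changed after that, and the first fit is kept as an alternative.

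Named genes were the members, other genes whose names begin with AP2D, ERF, DREB or CBF, and the entries of highest and lowest r with each member. The members and lists were chosen with earlier results of these data known. A list of the wider family by gene description and one of photosynthesis genes were not used here, since no description was at hand. Alternatives were no filter, a filter at log2 of 4, 4 added to the linear values, median-centred differences, plain eBayes, each cultivar left out, each of days 7, 14 and 21 left out, and the other entry of the gene.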

Additional observations from a re-analysis of the deposited data

Results flagged for a closer look

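The course of control fruit after harvest went opposite ways in the cultivars. Control minus harvest, averaged over days 7, 14 and 21, was 0.53 for AP2D11 in Granny Smith, against -0.87 in Golden Delicious and -0.27 in Fuji. Each of the 3 days had the sign of its cultivar's mean. For AP2D42 the same quantity was 0.35 in Granny Smith, against -0.94 in Golden Delicious and -0.96 in Fuji, again with 1 sign on each day within a cultivar.

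In 1-MCP fruit, AP2D42 minus harvest over these days was 0.52 in Granny Smith and -0.13 in Golden Delicious, with 1 sign on each day in both. In Fuji the sign varied between the days. None of these differences between cultivars was tested. All days of a cultivar share its single harvest column, and the columns of days 7, 14 and 21 also entered the contrast that chose the genes.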

How the results depend on the processing

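No paired analysis was possible for replicate fruit, because each column is a group mean with no replicate number; the tests pair groups within a cultivar. Of 133 tested values of AP2D11 and AP2D42 under alternatives, 117 kept direction and side of the threshold. That count includes results that were not called to begin with, so it does not measure how stable the calls were. Each AP2D11 call had 10 alternatives. The call was kept in 7 of them at day 1, in 6 at 2 months and in 5 in 1-MCP fruit at day 1 against harvest. For AP2D11 the calls were lost, at the same mean, at day 1 (-0.61), at 2 months (-1.51) and in 1-MCP fruit at day 1 against harvest (-0.74) with no filter, with plain eBayes and with the trend on the mean difference. That last setting was the first fit run, and the trend on the mean level reported here was chosen after it had called 0 entries. The difference of 2 months and day 1 passed with the other AP2D11 entry (-0.89). The cause was not tested.

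With 1 cultivar left out, AP2D11 lay between -0.65 and -0.58 at day 1, between -1.77 and -1.36 at 2 months, and between -0.89 and -0.53 in 1-MCP fruit at day 1 against harvest. Uncalled means changed sign without 1 cultivar: AP2D42 at day 1 lay between -0.0016 and 0.11, AP2D11 in control fruit at day 1 against harvest between -0.32 and 0.061, and AP2D42 in 1-MCP fruit at 2 months against harvest between -0.14 and 0.025, AP2D14 at day 1 between -0.34 and 0.064, and ERF1 in control fruit at 2 months against harvest between -0.13 and 0.40.

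Entries called numbered 1799 at day 1 (0 to 1845 over the alternatives), 1718 at 2 months (0 to 1752), 483 for the difference of these times (0 to 784) and 7214 over days 7, 14 and 21 (2166 to 7498). Against harvest they numbered 2546 for 1-MCP at day 1 (0 to 2582), 1166 for control at day 1 (0 to 2481), 4284 for 1-MCP at 2 months (0 to 4178) and 2344 for control at 2 months (0 to 2385). Where limma without the filter called 0, unadjusted p was under 0.05 for 5014 entries at day 1 and 6080 at 2 months. Where the trend on the mean difference called 0, it was for 3503 and 5126. Leaving out Granny Smith left 22 entries called at 2 months. Averages of days 7, 14 and 21 without 1 cultivar or day lay between -0.95 and -0.58 for AP2D11 and between 0.49 and 0.85 for AP2D42.

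Without Golden Delicious, AP2D42 was 0.32 at 2 months, 0.32 for the difference of 2 months and day 1, and -0.39 in control fruit at 2 months against harvest, and AP2D11 was -0.30 in 1-MCP fruit at 2 months against harvest. None of these was called with or without it.

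Spread between replicate fruit and depth are not known, so a difference between single columns has no error, and fruit lot and treatment cannot be told apart within 1 cultivar.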
